A study of Mus musculus with 586 samples.

Results

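The 8 genes described here are core components of the hedgehog signalling pathway, chosen by name: the ligands Ihh and Shh, the receptor and antagonist genes Ptch1 and Hhip, the transducer Smo and the transcription factor genes Gli1, Gli2 and Gli3. All 8 were found in each of the 18 deposited tables, among 23361 genes. The study measured RNA in small positional samples of C57BL/6 mouse embryos around gastrulation, taken by laser microdissection from serial frozen sections, and the labels give no treatment or mutation. The libraries used numbered 473, from 18 embryos: 22 libraries of 2 embryos at E5.5, 22 of 2 at E6.0, 109 of 6 at E6.5, 101 of 2 at E7.0 and 219 of 6 at E7.5. Sections are numbered from the distal tip of the embryo, and the region codes, which the labels leave unexplained, were taken in their usual sense for this data set: A for anterior and P for posterior epiblast, EA for anterior and EP for posterior endoderm, M (with MA and MP) for mesoderm, VE for visceral endoderm, L and R for lateral epiblast. The labels number the embryos and do not say whether they were littermates, so p-values measure the spread between these embryos. Values are FPKM (fragments per kilobase of transcript and 1000000 mapped fragments), and all tests were made on log2(FPKM + 1) with the embryo as the replicate. Where no test was made, values are given as a description. Each library is a bulk sample, so fewer cells of a type and less RNA per cell cannot be told apart.

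Hedgehog ligands are secreted proteins. In their absence the receptor Patched1, the product of Ptch1, holds back the membrane protein Smoothened, the product of Smo. Ligand binding to Patched1 frees Smoothened, which acts through the primary cilium and changes the processing of Gli2 and Gli3 from repressor towards activator forms. Ptch1, Gli1 and Hhip are themselves transcribed in response to the signal in many tissues, and Ptch1 and Hhip bind the ligand and limit its spread. In the gastrulating mouse embryo, Ihh is known from the visceral endoderm, and Shh from the node, the notochord and the floor plate that forms above it.

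In the annotation of the mm10 assembly (GRCm38, GENCODE vM21) the ligand genes lie on the minus strand at chr1:74945315-74951672 (Ihh) and chr5:28456815-28467256 (Shh). Ptch1 lies at chr13:63508328-63573598 on the minus strand, Hhip at chr8:79965851-80058006 on the minus strand and Smo at chr6:29735503-29761365 on the plus strand. Gli1 is at chr10:127329882-127341974 (minus), Gli2 at chr1:118834132-119053619 (minus) and Gli3 at chr13:15463235-15730026 (plus). Each value is for the whole gene, and isoforms were not separated. The plot of all 8 genes by stage and region gives their levels.

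**Figure D1:**
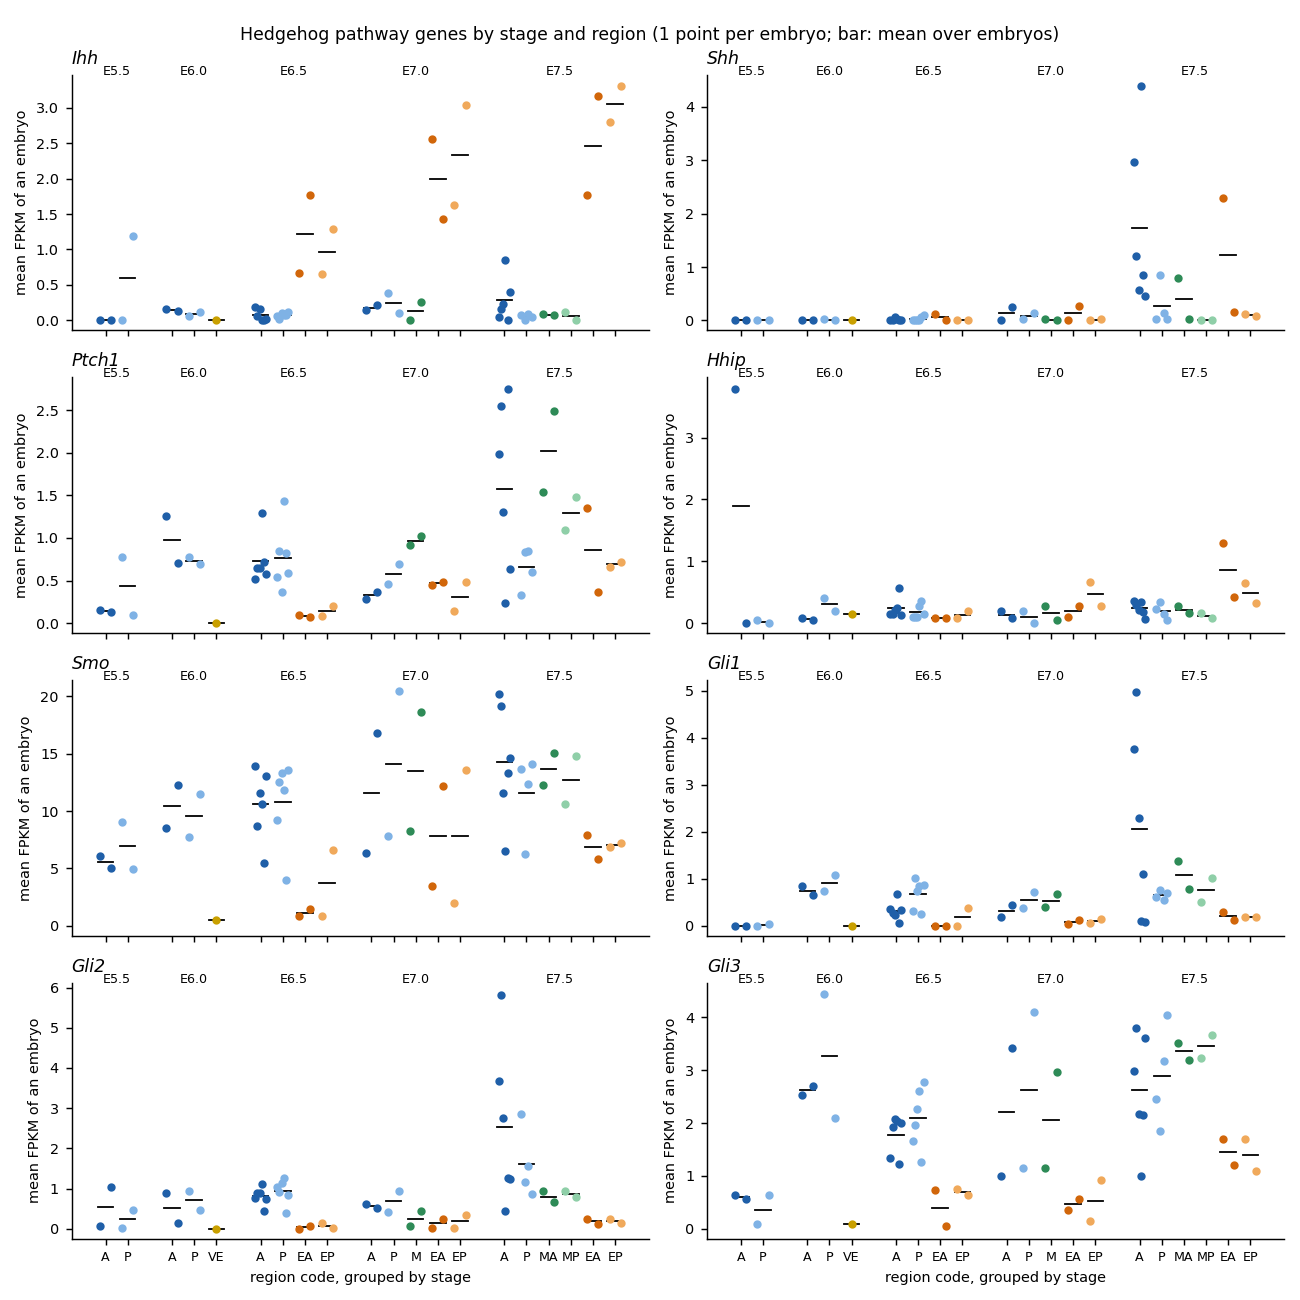
FPKM of each of the 8 genes (vertical axis, linear) by region and stage (horizontal axis), with 1 point per embryo (mean over its sections) and a bar at the mean over embryos. Among the single regions drawn, Ihh is highest in EA and EP, and Shh in A and EA at E7.5. The mean of Smo is lower in EA and EP than in A and P at E6.5. Combined-region libraries are not drawn.

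The region labels were checked against marker genes. The summed FPKM of 7 visceral endoderm markers (Ttr, Apoa1, Apob, Afp, Rhox5, Amn and Cubn) in the endoderm of E7.5 embryos averaged 4200 in the proximal sections of EA and 6170 in those of EP, against 54.5 in the proximal sections of P. Mesoderm was less distinct from P: in the proximal sections of E7.0 the sum of 6 nascent mesoderm markers averaged 364 FPKM in M and 522 FPKM in P, while 5 epiblast markers summed to 116 FPKM in M and 336 FPKM in P. In those P sections the nascent mesoderm markers thus summed higher than the epiblast markers. P is counted as epiblast below by its code alone. Between 2683 and 11319 genes reached 1 FPKM per library (median 8949). A rough depth, read from the most common low value per length among genes with a single transcript and taken as the worth of 1 read, ran from 2.08 to 10.49 M reads (1 M is 1000000) in the median library of an embryo. Poor libraries, with fewer than 5000 genes at 1 FPKM or with 1 gene above 50% of the sum, numbered 26. At E6.5 they include 4 EA and 3 EP libraries of the 14 of embryo 5, and 2 EA libraries of the 14 of embryo 6. Section 1 of P in E7.5 embryo 6 and section 2 of EP in E7.5 embryo 5 are also among them. At E7.5 no P columns of embryos 1 and 2 were used, and A of embryos 4, 5 and 6 was read in sections 3, 6 and 9 only.

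Ihh was an endoderm RNA from E6.5 to E7.5. In the 2 E6.5 embryos with endoderm libraries its mean over sections was 0.663 and 1.77 FPKM in EA and 0.653 and 1.29 FPKM in EP (embryos 5 and 6). At E7.0 the means were 2.56 and 1.43 FPKM in EA and 1.63 and 3.03 FPKM in EP (embryos 1 and 2). At E7.5 they were 1.76 and 3.16 FPKM in EA and 2.80 and 3.30 FPKM in EP (embryos 5 and 6). No A or P mean of an embryo at these stages exceeded 0.855 FPKM, reached in A at E7.5. Mesoderm held less: 0.131 ± 0.186 FPKM in M at E7.0 (SD, n = 2), 0.0824 ± 0.0119 in MA and 0.0628 ± 0.0888 in MP at E7.5 (SD, n = 2 each). The groups in order of mean level were EP at E7.5 (3.05 ± 0.354 FPKM), EA at E7.5 (2.46 ± 0.987), EP at E7.0 (2.33 ± 0.993), EA at E7.0 (1.995 ± 0.796), EA at E6.5 (1.21 ± 0.779) and EP at E6.5 (0.969 ± 0.448; SD, n = 2 each). Each neighbouring pair in that order differed by less than its spread.

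Before E6.5 the gene was close to absent in the regions sampled. At E5.5 it was above 0 in 1 of 10 P libraries, at 5.97 FPKM in section 4 of embryo 2, and in none of 10 A libraries. At E6.0 all 4 VE libraries, from 1 embryo, had Ihh listed at 0, although their 7 visceral endoderm markers summed to at least 475.4 FPKM in each. These VE libraries came from sections 1 to 4, and each had between 5402 and 6406 genes at 1 FPKM.

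Within the endoderm Ihh lay proximally, towards the extra-embryonic part of the embryo. In EA of E7.5 embryo 6 the 9 sections from 2 to 10 held 0, 0, 0.189, 0, 0, 0.639, 3.36, 3.77 and 20.5 FPKM. In EA of embryo 5 they held 0.865, 1.67, 0.168, 0, 0, 0.464, 1.75, 3.11 and 7.84 FPKM. EP of embryo 6 read 0, 0, 0.328, 0, 2.67, 5.82, 6.18, 4.49 and 10.2 FPKM, and EP of embryo 5 read 0.164, 0.19, 2.38, 0, 0.624, 1.73, 7.95, 7.06 and 5.11 FPKM. In all 4 series each of sections 8 to 10 was above every one of sections 2 to 6.

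At E7.0 sections 8 to 11 of EA read 5.17, 6.48, 3.91 and 7.12 FPKM in embryo 1 and 2.04, 3.18, 3.21 and 3.02 FPKM in embryo 2. Sections 8 to 11 of EP read 0.559, 3.03, 4.93 and 7.37 FPKM in embryo 1 and 3.06, 3.30, 5.63 and 13.7 FPKM in embryo 2. Sections 2 and 3 were at 0 in all 4 of these series. At E6.5 sections 2 to 4 of EA were at 0 in both embryos, and section 8, the most proximal, held 4.29 and 5.15 FPKM. EP at E6.5 was patchier, with 3.24 FPKM in section 6 and 1.32 in section 8 of embryo 5. With the section axis cut into 3 equal parts, the highest section fell in the proximal part in 12 of 12 series of an embryo and region.

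**Figure D2:**
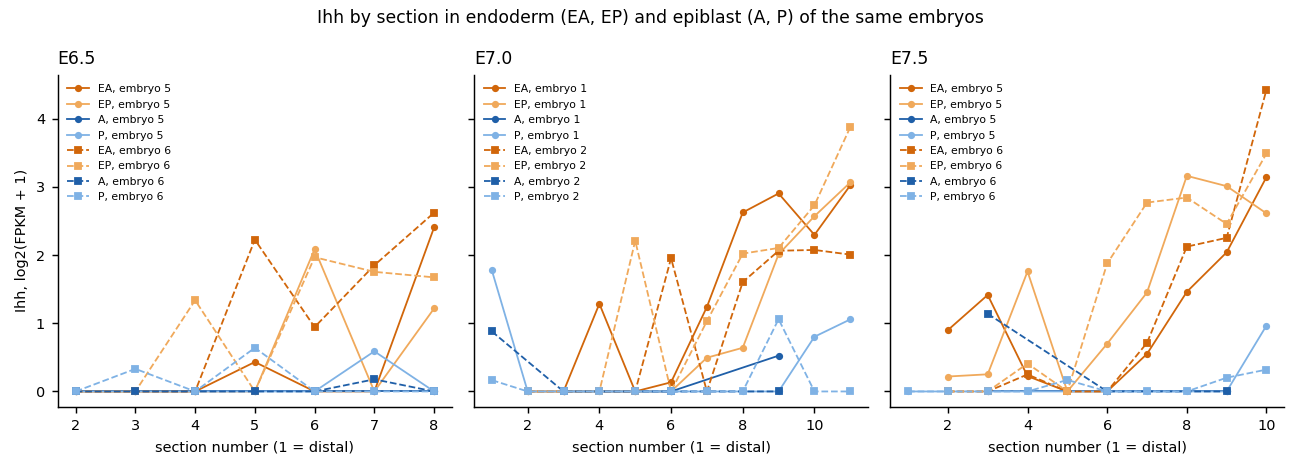
Ihh as log2(FPKM + 1) against section number (1 is the distal tip), 1 panel per stage and 1 line per embryo and region, in the embryos with endoderm libraries. EA and EP lines are high in the proximal sections, up to 20.5 FPKM in EA of E7.5 embryo 6, while no A or P point exceeds 2.43 FPKM.

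Endoderm was compared with epiblast in 6 embryos, within sections that held both. Ihh was higher in endoderm in 6 of 6 embryos, by 0.40 and 0.94 (log2) at E6.5, 0.90 and 1.13 in the pair of E7.0 embryos, then 1.17 and 1.18 at E7.5. The mean difference was 0.95 ± 0.15 (SE; limma adjusted p = 5.95e-05), and each stage passed on its own: 0.67 ± 0.26 at E6.5 (adjusted p = 0.0314), 1.02 ± 0.26 at E7.0 (adjusted p = 0.0077) and 1.17 ± 0.26 at E7.5 (adjusted p = 0.00336). The scale understates the change of low genes. At the 3 stages 3.89%, 10% and 9.43% of the genes tested were higher in endoderm. Ihh entered the test, which required a mean of 1 FPKM at 1 stage, through its endoderm libraries alone. Without that filter the adjusted p was 0.00157. An exact two-sided sign permutation test over the 6 embryos gave p = 0.031, the smallest that 6 embryos allow. After adjustment over the 8 members it was 0.05, which is not below the threshold of 0.05. The call at E6.5 rested on embryo 6: without it the difference was 0.40 (adjusted p = 0.367). It was also lost without the filter (0.0567) and unpaired (0.0649), and without the poor libraries the difference was 0.90 (adjusted p = 0.00807). Without E7.0 embryo 2 or E7.5 embryo 6 the adjusted p of those stages was 0.114 and 0.0653. The change of the difference from E6.5 to E7.5 did not pass (adjusted p = 0.293).

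Of the 8 genes, 3 were called in this comparison, Ihh higher and Smo and Gli3 lower in endoderm, and those were the 3 that passed the filter. Over all genes tested, 79.4% were called, 11.2% higher and 68.2% lower, so a lower call was the common outcome and a higher one was not. The higher and lower calls numbered 1153 and 6991. After rescaling each library to an equal median they numbered 2400 and 3502. The median difference of all genes tested was -0.53 (log2), and -0.10 after that rescaling.

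Against mesoderm, Ihh was higher in endoderm in 4 of 4 embryos, by 0.91 to 1.27 (log2), with a mean of 1.11 ± 0.18 (SE; limma adjusted p = 0.00288). It differed by 1.01 at E7.0 (adjusted p = 0.027) and by 1.20 at E7.5 (adjusted p = 0.0246). Here too Ihh passed the filter only through its endoderm libraries. Without the filter the mean had an adjusted p of 0.0393, and limma called no gene at either stage alone, with 4788 genes at E7.0 and 4547 at E7.5 at an unadjusted p below 0.05. In this comparison 45% of the genes tested were called, and 14.4% were higher in endoderm (8.24% at E7.0 and 6.8% at E7.5). Anterior and posterior endoderm were not separated: EP minus EA was 0.12 ± 0.15 (SE, log2; adjusted p = 0.827), in a comparison where 0.118% of genes were called.

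The proximal rise of Ihh was tested as the slope of its log2 value along the section axis, scaled from 0 at the most distal endoderm section of an embryo to 1 at the most proximal. The slope was positive in 6 of 6 embryos, between 1.39 and 3.86, with a mean of 2.70 ± 0.43 (SE; limma adjusted p = 0.000466). Of all genes tested 12.7% were called, 11.5% with a positive slope (1.42% at E7.5), and the median slope of all genes was 0.36. By stage the slope was 1.85 at E6.5 (adjusted p = 0.155), 3.12 at E7.0 (adjusted p = 0.0504) and 3.13 ± 0.75 at E7.5 (adjusted p = 0.0392). The call at E7.5 was lost without E7.5 embryo 5 (3.86, adjusted p = 0.17) or embryo 6 (2.40, adjusted p = 1), without either E7.0 embryo (0.11 and 0.105), without poor libraries (0.0835) and at an equal median (0.0508). Without the filter on low values the mean slope had an adjusted p of 0.0892, and no gene of the table was called by limma, with 3236 at an unadjusted p below 0.05. The exact sign permutation p of the Ihh slope was 0.031, and 0.25 after adjustment over the 8 members. No other member was called along this axis: the mean slope was -0.07 for Smo (adjusted p = 0.926) and -0.47 for Gli3 (adjusted p = 0.339), and the remaining 5 did not pass the filter.

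The visceral endoderm markers rose along the same axis. Their sum averaged 160, 854 and 4200 FPKM in the distal, middle and proximal sections of EA at E7.5, and 320, 1503 and 6170 FPKM in those of EP. At E6.5 the same sums in EA were 242, 484 and 2450 FPKM, and at E7.0 they were 400, 781 and 6047 FPKM. In P the proximal sum was 56.5 FPKM at E7.0 and 54.5 FPKM at E7.5. The part of these cells in the Ihh slope was not tested. Summed markers of parietal endoderm went the other way in EA at E7.5, from 369.6 FPKM distally to 146 FPKM proximally, and markers of maternal decidua and blood from 1314 to 66.1 FPKM.

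Over the 97 stage, region and position groups, the genes most like Ihh in mean log2(FPKM + 1), among 9649 genes that reached 5 FPKM in a group, were Aadac (r = 0.91), the glucose transporter gene Slc2a2 (0.88), the gap junction gene Gjb1 (0.87), Serpinf2 (0.86) and Slco4c1 (0.86). The groups share embryos and libraries, so these correlations are a description.

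Shh had a different distribution. Before E7.5 it was seldom above 0: none of the 20 A and P libraries of E5.5 had it, and at E6.0 it was in 1 of 8 P libraries and none of 8 A libraries. The highest value of A or P was 0.636 FPKM at E6.5 and 1.11 FPKM at E7.0. That last value lay in the most distal section of P in E7.0 embryo 2. The other E7.0 embryo held 0.276 FPKM there, and A of embryo 2 held 0.918 FPKM in the same section. Outside A and P, section 3 of EA in E7.0 embryo 2 held 2.70 FPKM.

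At E7.5 the highest Shh values of A lay in its most distal sections in most embryos. Section 1 of A held 24.1, 9.28 and 2.13 FPKM in embryos 1, 2 and 3, and section 2 held 0.105, 1.15 and 3.21 FPKM. No A section from 3 upwards in these 3 embryos exceeded 1.10 FPKM. In embryos 4, 5 and 6, where the most distal A library was section 3, that section held 13.2, 0.166 and 1.36 FPKM. Embryo 5 went the other way, since its mean over sections 3, 6 and 9 was 0.847 FPKM, above its distal value. In P, section 1 held 0.293, 7.97, 0.852 and 0.261 FPKM in embryos 3 to 6, and beyond it 2 P libraries were above 0, at 0.61 and 0.508 FPKM. Shh in distal P was thus high in embryo 4 and below 1 FPKM in the other 3.

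Shh also appeared in distal endoderm and in anterior mesoderm of E7.5 embryo 5. EA of that embryo read 12.1, 0.842, 2.30, 1.02 and 3.61 FPKM in sections 2 to 6, and its combined EA and EP library of section 1 held 9.60 FPKM. In EA of embryo 6 the highest value was 0.708 FPKM. MA of embryo 5 reached 2.93 FPKM in section 5, and MP was at 0 in all 18 libraries of both embryos. In order of mean level over single regions, the combined EA and EP libraries of section 1 left out, Shh at E7.5 stood at 1.74 ± 1.59 FPKM in A (SD, n = 6), 1.22 ± 1.51 in EA (n = 2), 0.408 ± 0.551 in MA (n = 2), 0.262 ± 0.400 in P (n = 4), 0.101 ± 0.0301 in EP (n = 2) and 0 in MP (n = 2). Neighbours down to EP differed by less than the larger of their SDs.

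**Figure D3:**
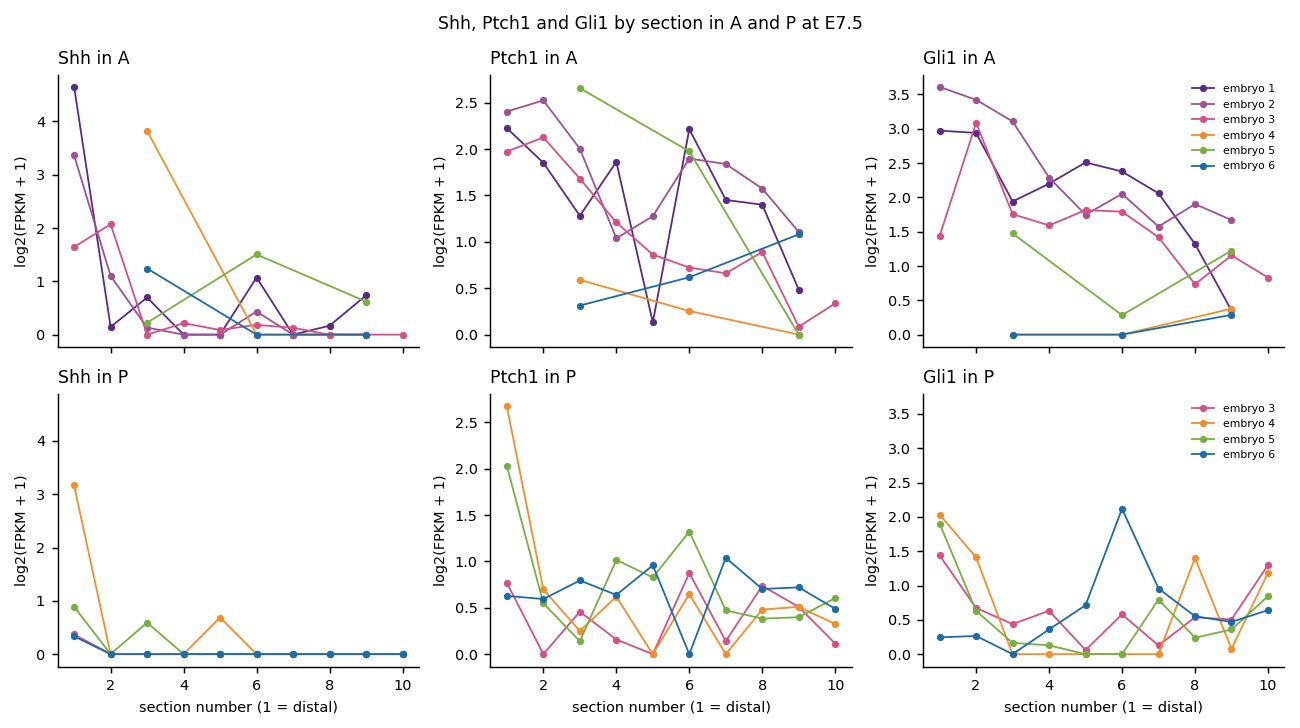
Shh, Ptch1 and Gli1 as log2(FPKM + 1) in A (top) and P (bottom) at E7.5 against section number (1 is the distal tip), with 1 line per embryo. Shh is highest in section 1 of A in embryos 1 and 2, at 24.1 and 9.28 FPKM, and in section 2 in embryo 3, while A of embryos 4 to 6 starts at section 3, and in P its highest value is 7.97 FPKM in section 1 of embryo 4.

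Tests of Shh are limited by its low mean. Over the sections that held both regions, P minus A at E7.5 was -0.67 ± 0.12 (SE, log2), lower in P in 4 of 4 embryos, from -1.28 to -0.40. In embryos 4 to 6 this left out section 1 of P, where Shh was highest in P. The most distal part of P was thus not compared with A in those embryos. Shh did not pass the filter in that comparison, and among all genes without the filter its adjusted p was 0.00345, where 6.48% of genes were called. That p and the SE rest on 1 spread over all stages, and Shh was seldom above 0 before E7.5. The 4 differences at E7.5 themselves had an SD of 0.414. An exact two-sided sign permutation test over the 4 embryos gave p = 0.12, the smallest that 4 embryos allow, so it could not pass the threshold. The slope of Shh along A at E7.5 was -1.77 ± 0.46 (SE, log2 per axis; adjusted p = 0.103). Leaving out each embryo gave -2.20 to -1.36, with adjusted p from 0.0303 (without E7.5 embryo 5, the 1 case that passed) to 0.345. In embryos 1 to 3, which have A libraries in every section, it was -1.98 (adjusted p = 0.00106), and in embryos 4 to 6 alone it was -1.56 (adjusted p = 0.858). That split was chosen after the values were seen. Along P at E7.5 the slope was -0.63 (log2 per axis), below the filter, with an adjusted p of 0.141 without it.

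Node and axial mesoderm genes were high in the same distal A libraries. In section 1 of A in embryos 1, 2 and 3, Noto, a homeobox gene of the node, held 674, 183 and 107 FPKM. T, the brachyury gene, held 1216, 238 and 299 FPKM there, and Foxa2, a forkhead gene of node and endoderm, held 70.2, 25.3 and 26.5 FPKM. Along A at E7.5 Foxa2 fell by 3.90 ± 0.74 (SE, log2 per axis; limma adjusted p = 0.029), in a comparison where 0.248% of genes were called and none of the 8 members was. Of the 6 members that passed its filter, Shh, Ptch1 and Gli1 had an unadjusted p below 0.05. In section 1 of P, Noto held 1.87 FPKM in embryo 3, 69.4 in embryo 4, 34.3 in embryo 5 and 0.927 in embryo 6. The part of node cells in the Shh values was not tested. The genes most like Shh over the 97 groups were Vtn (r = 0.79), Dynlrb2 (0.74), Noto (0.71), Enkur (0.70) and Chrna9 (0.70).

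Each ligand was found in few libraries. Of the 473 libraries, 58 (12.3%) had Ihh at 1 FPKM or more, 24 (5.07%) had Shh, and 3 had both. With each gene this rare, the number of libraries with both is a description and says nothing of whether the ligands exclude each other. In the 108 endoderm libraries, which are EA, EP and the combined EA and EP ones, 47 (43.5%) had Ihh and 7 (6.48%) had Shh. None had both. In A 3 of 99 libraries had Ihh and 9 had Shh, and in P 4 of 117 had Ihh and 2 had Shh. Mesoderm had Ihh in none of 56 libraries and Shh in 3. The correlation of the 2 genes over the 97 groups was 0.0055. A value of 0 does not exclude a low level, since 1 read of Ihh was worth 0.164 FPKM in the median library of E7.5 embryo 5 by the rough depth.

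Ptch1 was low in every region and highest in the mesoderm and the A side at E7.5. At E7.0 its embryo means were 0.911 and 1.02 FPKM in M against 0.459 and 0.693 FPKM in P. At E7.5 they were 1.54 and 2.49 FPKM in MA and 1.09 and 1.49 FPKM in MP (embryos 5 and 6), against 0.847 and 0.602 FPKM in P of the same embryos. All 4 embryos had more in mesoderm than in P. Endoderm, taken as the mean of EA and EP, was lower than mesoderm. At E7.5 EA held 1.35 and 0.365 FPKM and EP 0.660 and 0.721 FPKM, and EA of embryo 5 was above MP of that embryo.

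Within the mesoderm of E7.5 embryo 6, Ptch1 rose towards the proximal end. MA read 0.193, 0.976, 1.24, 1.86, 2.29, 2.67, 2.32, 3.26 and 7.63 FPKM in sections 2 to 10, the last being the highest value of the gene in any library. MP of that embryo ended at 1.91 and 4.23 FPKM in sections 9 and 10. Embryo 5 did not share this order: its MA was highest in section 2, at 3.62 FPKM, and ended at 1.32 FPKM. At E7.0 the highest M values were 2.59 FPKM in section 11 of embryo 1 and 2.35 FPKM in section 10 of embryo 2. No test of the mesoderm slope was made.

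**Figure D4:**
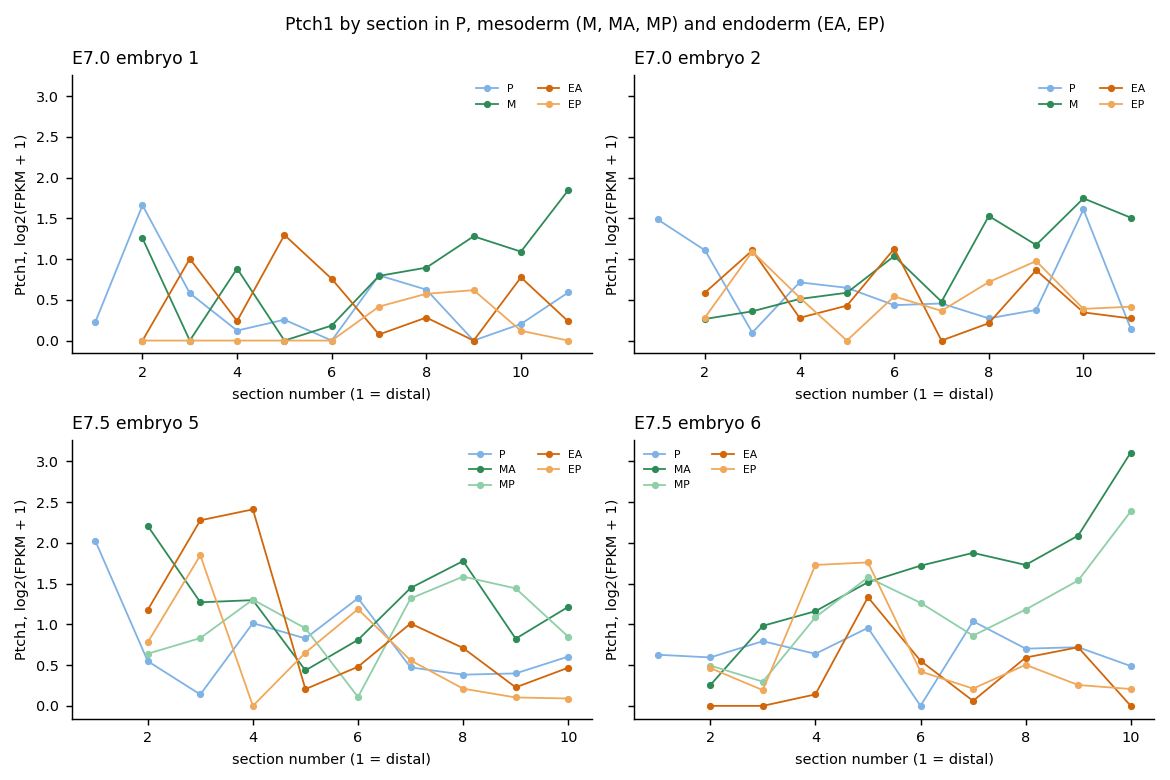
Ptch1 as log2(FPKM + 1) against section number (1 is the distal tip) in P, mesoderm and endoderm, with 1 panel for each of E7.0 embryos 1 and 2 and E7.5 embryos 5 and 6 and 1 line per region. MA of E7.5 embryo 6 climbs to 7.63 FPKM in section 10, and P of embryo 5 is highest in section 1, at 3.08 FPKM.

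Mesoderm minus P for Ptch1 was 0.34 and 0.33 (log2) in the E7.0 embryos and 0.49 and 0.74 in the E7.5 embryos, higher in 4 of 4. The mean was 0.48 ± 0.13 (SE; limma adjusted p = 0.0209), with 0.62 ± 0.18 at E7.5 (adjusted p = 0.0486) and 0.34 at E7.0 (adjusted p = 0.22). It was the 1 member called. Ptch1 passed the filter only through its mesoderm libraries at E7.5, as its P mean stayed below 1 FPKM at both stages. Of all genes tested 48.3% were called, 3.64% higher in mesoderm (1.74% at E7.5) and 44.7% lower. The higher and lower calls were 358 and 4391, and after rescaling to an equal sum they were 91 and 139, and at an equal median 284 and 140. The call on Ptch1 was lost without E7.5 embryo 5 (adjusted p = 0.0802) or embryo 6 (adjusted p = 0.0964), without the filter (0.0636), and with the libraries at an equal sum (difference 0.77, adjusted p = 0.074). It was also lost unpaired and with a pseudocount of 0.1. Over these other settings the limma adjusted p of the mean ran up to 0.912.

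Endoderm minus mesoderm for Ptch1 was -0.53 ± 0.13 (SE, log2; limma adjusted p = 0.0122), lower in 4 of 4 embryos, from -0.89 to -0.33. Here too Ptch1 passed the filter only through its mesoderm libraries at E7.5, where it was high. Without E7.5 embryo 6 it was -0.39 (adjusted p = 0.178). The call was also lost unpaired, and over the other settings its adjusted p ran up to 0.1935. Endoderm minus epiblast was -0.25 for Ptch1, which did not pass that comparison's filter. Without the filter its adjusted p was 0.0282, where 39.9% of genes were called. At E6.5 Ptch1 held 0.0996 and 0.0706 FPKM in EA against 0.766 ± 0.374 FPKM in P (SD, n = 6).

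On the A side at E7.5 Ptch1 was higher in the distal sections of 3 embryos. It held 3.68, 4.30 and 2.93 FPKM in section 1 and 2.61, 4.76 and 3.36 FPKM in section 2 of embryos 1, 2 and 3. Section 9 of those embryos held 0.399, 1.15 and 0.0607 FPKM. Section 3 of A in embryo 5 was at 5.31 FPKM, and no A library of embryos 4 and 6 exceeded 1.11 FPKM. The slope along A was -1.07 (log2 per axis; adjusted p = 0.265), and -1.31 in embryos 1 to 3 alone (adjusted p = 0.048). As for Shh, that split was chosen after the values were seen, so its p adds no support to the slope. In section 1 of P, the same gene held 0.704, 5.37, 3.08 and 0.545 FPKM in embryos 3 to 6. The 2 high values were in the 2 embryos with the most Shh and Noto there. Section 3 of A did not show this match. Embryo 4 held 13.2 FPKM of Shh there and no more than 1.11 FPKM of Ptch1. Embryo 5, at 5.31 FPKM of Ptch1, had the lowest Shh of embryos 4 to 6 in that section. Over the 97 groups the correlation of Ptch1 with the other members was 0.45 for Smo, 0.35 for Gli3, 0.34 for Shh, 0.32 for Gli1, 0.04 for Gli2 and for Hhip, and -0.02 for Ihh. The genes most like Ptch1 were Braf (r = 0.63), Frmd6 (0.62), Mex3c (0.60), Csnk1g3 (0.59) and Rhobtb3 (0.59).

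Hhip, which encodes a membrane-bound hedgehog antagonist, was the least abundant of the 3 target genes in A and mesoderm at E7.5, and in endoderm it was not. EA of E7.5 embryo 5 read 0.731, 0.984, 1.06, 2.33, 2.51, 1.88, 1.49, 0.553 and 0.0886 FPKM in sections 2 to 10, highest in the middle sections. EA of embryo 6 did not exceed 0.969 FPKM. The embryo means at E7.5 were 1.29 and 0.422 FPKM in EA and 0.648 and 0.323 FPKM in EP, against 0.193 ± 0.130 FPKM in P (SD, n = 4) and 0.241 ± 0.112 FPKM in A (SD, n = 6). Hhip passed no filter. Its endoderm minus epiblast difference at E7.5 was 0.54 ± 0.14 (SE, log2), with an adjusted p of 0.0539 over all genes without the filter. In 1 A library of E5.5 embryo 1, a poor one with 3725 genes at 1 FPKM, it stood at 18.3 FPKM, while 7 of the 10 A libraries of that stage had it at 0. The genes most like Hhip were Cpm (r = 0.49) and Tgm2 (0.46), a weaker likeness than for the ligands.

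Smo was the most abundant member in every epiblast and mesoderm group. Its embryo means at E6.5 were 10.6 ± 3.09 FPKM in A and 10.7 ± 3.65 FPKM in P (SD, n = 6 each), and they were 1.14 ± 0.441 FPKM in EA and 3.76 ± 4.09 FPKM in EP (SD, n = 2 each). EP of embryo 6, at 6.65 FPKM, was above A and P of embryo 5, at 5.51 and 4.02 FPKM. At E7.5 A held 14.2 ± 5.03 FPKM (SD, n = 6), P 11.6 ± 3.66 FPKM (n = 4), MA 13.7 ± 2.01, MP 12.7 ± 2.97, EA 6.83 ± 1.48 and EP 7.06 ± 0.227 FPKM (n = 2 each). Endoderm minus epiblast was -1.31 ± 0.13 (SE, log2; limma adjusted p = 1.08e-06), lower in 6 of 6 embryos, with -1.88 at E6.5, -1.04 at E7.0 and -1.02 at E7.5. Endoderm minus mesoderm was -0.96 ± 0.18 (adjusted p = 0.00422). That call on Smo was lost unpaired, and over the other settings its adjusted p ran up to 0.216.

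Gli3, whose processed form is the main Gli repressor in many tissues, had the same pattern at a lower level. It held 2.09 ± 0.578 FPKM in P at E6.5 (SD, n = 6) and 2.89 ± 0.944 FPKM at E7.5 (n = 4), against 1.46 ± 0.348 FPKM in EA and 3.36 ± 0.228 FPKM in MA at E7.5 (n = 2 each). Endoderm minus epiblast was -1.03 ± 0.15 (SE, log2; limma adjusted p = 3.09e-05), lower in 6 of 6 embryos, and endoderm minus mesoderm was -0.93 ± 0.15 (adjusted p = 0.00326). Over the 97 groups Smo and Gli3 had r = 0.75 and Gli2 and Gli3 r = 0.65, the closest pairs among the 8, while Ihh and Gli3 had r = -0.34. In endoderm minus mesoderm 4 of the 8 members were called, Ihh higher and Ptch1, Smo and Gli3 lower, where 30.6% of all genes were lower. Those were the 4 that passed the filter, Ihh and Ptch1 only through the region where each was higher. The median difference of all genes tested against mesoderm was -0.17.

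**Figure D5:**
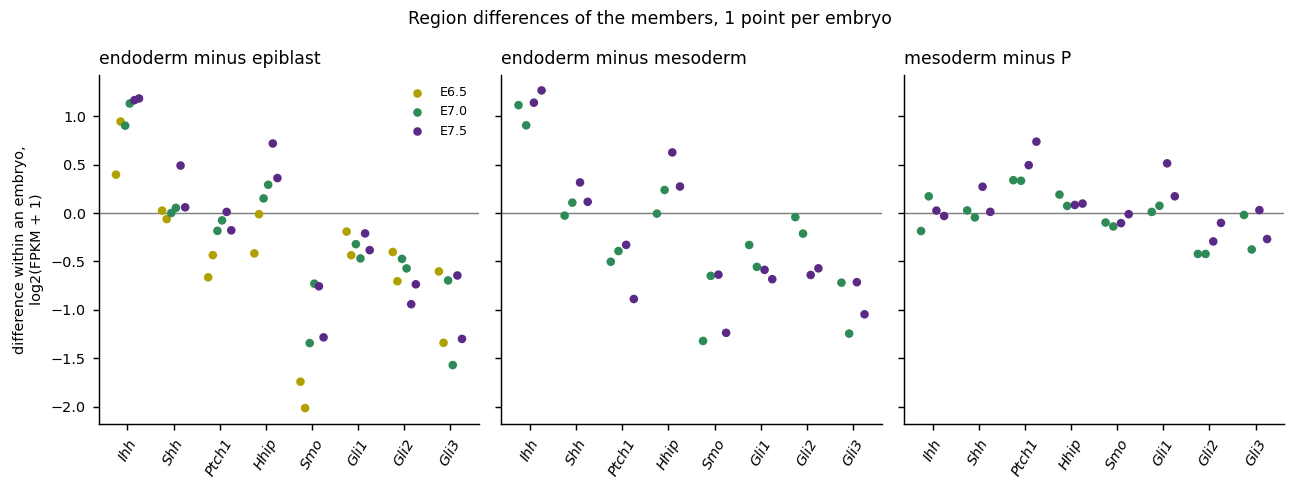
Difference in log2(FPKM + 1) between regions for each of the 8 genes, with 1 point per embryo coloured by stage, for endoderm minus epiblast, endoderm minus mesoderm and mesoderm minus P. Ihh points lie above 0 in every embryo of the first 2 panels, and Smo and Gli3 points lie below 0.

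Gli2 and Gli1 were nearly absent from endoderm. Gli2 held 0.188 ± 0.0913 FPKM in EA and 0.186 ± 0.0743 FPKM in EP at E7.5 (SD, n = 2 each), against 2.53 ± 1.99 FPKM in A (n = 6) and 1.61 ± 0.879 FPKM in P (n = 4). Gli1 held 0.215 ± 0.127 FPKM in EA (n = 2), 2.05 ± 2.01 FPKM in A (n = 6) and 0.660 ± 0.0973 FPKM in P (n = 4). In E7.5 embryos 5 and 6, the ones with EA libraries, A held 1.11 and 0.0735 FPKM of Gli1. EA of those embryos held 0.305 and 0.1255 FPKM, so A was not above EA in embryo 6. Neither passed the filter of the endoderm comparison. Without the filter endoderm minus epiblast was -0.64 for Gli2 (adjusted p = 0.00181) and -0.34 for Gli1 (adjusted p = 0.0134), each lower in 6 of 6 embryos. In mesoderm at E7.5 Gli1 stood at 1.08 ± 0.426 FPKM in MA and 0.765 ± 0.352 FPKM in MP (SD, n = 2 each).

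Gli1 on the A side at E7.5 was high in the distal sections of 3 embryos. Sections 1 and 2 of A held 6.86 and 6.67 FPKM in embryo 1, 11.2 and 9.72 FPKM in embryo 2 and 1.71 and 7.49 FPKM in embryo 3. The embryo means in A were 3.75, 4.98 and 2.29 FPKM in embryos 1 to 3 and 0.0999, 1.11 and 0.0735 FPKM in embryos 4 to 6. Over sections 3, 6 and 9, which all 6 embryos have, Gli1 averaged 2.93 ± 1.22 and 0.428 ± 0.592 FPKM (SD, n = 3 each) in these sets, Gli2 3.69 ± 1.16 and 0.982 ± 0.475, and Ptch1 1.70 ± 0.67 and 1.20 ± 1.35. The A libraries of these sections had 9711 and 8258 genes at 1 FPKM on average. The rough depth of the median library was 10.4, 8.05 and 7.26 M reads in embryos 1 to 3 and 3.03, 2.47 and 2.69 M reads in embryos 4 to 6. These sets are not groups of the study, and the part of depth in their difference was not tested.

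At E5.5 Smo held 5.56 ± 0.741 FPKM in A and 7.00 ± 2.92 FPKM in P, and Gli3 held 0.602 ± 0.0588 and 0.357 ± 0.392 FPKM (SD, n = 2 each). At E6.0 Gli3 stood at 2.62 ± 0.116 FPKM in A and 3.27 ± 1.65 FPKM in P, while Smo stood at 10.4 ± 2.66 and 9.58 ± 2.63 FPKM (SD, n = 2 each). In VE of E6.0 embryo 2, Smo averaged 0.522 FPKM and Gli3 0.0899 FPKM, and Ptch1, Gli1 and Gli2 were listed at 0 in all 4 libraries. Gli1 was above 0 in none of 10 A and 1 of 10 P libraries at E5.5, and in 6 of 8 A and 7 of 8 P libraries at E6.0. Ptch1 was above 0 in 4 of 10 A and 4 of 10 P libraries at E5.5 and in 6 of 8 A and 8 of 8 P libraries at E6.0, where its means were 0.981 ± 0.397 and 0.735 ± 0.0636 FPKM (SD, n = 2 each). These stages were not compared by a test.

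Between P and A none of the 8 members was called at any stage, with Smo, Gli2 and Gli3 passing the filter and an unadjusted p below 0.05 for Smo at E5.5 alone. Of all genes tested, limma called 14.9% at E5.5, 0% at E6.0 (1411 genes at an unadjusted p below 0.05), 0.437% at E6.5, 2.3% at E7.0 and 12.9% at E7.5. Gli1 was higher in P in 6 of 6 embryos at E6.5, by a mean of 0.29 ± 0.17 (SE, log2). Its exact sign permutation p was 0.031, and 0.25 after adjustment over the 8 members.

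Along P at E6.5 Gli3 rose proximally in 6 of 6 embryos. It went from 1.07 FPKM in the most distal P section to 2.86 in the most proximal one of embryo 1, from 1.71 to 4.37 in embryo 4 and from 3.15 to 4.47 in embryo 6. The slope was 0.91 ± 0.22 (SE, log2 per axis; limma adjusted p = 0.0116), between 0.78 and 1.07 in single embryos. It was the 1 member called, where 11.1% of all genes were called and 10.7% rose. The median slope of all genes was 0.40, and 0.12 and -0.01 after rescaling to an equal sum or median. The Gli3 slope was then 0.78 (adjusted p = 0.0703) and 0.59 (adjusted p = 0.0775), so the call depended on the scaling. Averaged over E6.5, E7.0 and E7.5 the Gli3 slope in P was 0.56 ± 0.17 (SE; adjusted p = 0.019), positive in 12 of 12 embryos, where 26.8% of all genes were called and 23.9% rose. That call too was lost at an equal sum (0.36, adjusted p = 0.169) or an equal median (0.27, adjusted p = 0.187), and without E7.0 embryo 1 (adjusted p = 0.118), E7.0 embryo 2 (0.0803) or E7.5 embryo 5 (0.0504). Smo had a slope of 0.76 at E6.5 that did not pass (adjusted p = 0.0513). No member was called along P at E7.0 or E7.5, where 3.12% and 9.34% of genes were, and Gli2 had -0.86 ± 0.34 at E7.5 (adjusted p = 0.0884).

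From E6.5 to E7.5 no member was called in P, where 10.7% of all genes were, or in endoderm, where 12.8% were. Gli2 in P differed by 0.84 ± 0.29 (SE, log2; limma adjusted p = 0.0645), and Smo in endoderm by 1.59 (adjusted p = 0.0863). Ihh in endoderm differed by 0.53 ± 0.42 (adjusted p = 0.404). Embryos of different stages are different animals, and libraries were rescaled to a sum of 1000000 for this comparison.

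Another 44 genes of ligand release, co-reception, transduction, the primary cilium and known hedgehog targets of other tissues give the setting of the 8. In endoderm minus epiblast 23 of them were tested, 3 rose and 18 fell, with a median of -0.66 (log2) against -0.53 for all genes, of which 11.2% rose and 68.2% fell. Gpc3, a glypican that binds hedgehog ligands, rose by 1.07 and Foxa2 by 2.49. Gas1, a co-receptor, fell by 2.15, Rab34 by 1.71, Mycn by 1.58 and the cyclin genes Ccnd1 and Ccnd2 by 1.57 and 1.36. The cilium genes tested, 6 in all, were all lower in endoderm, with a median of -0.55 close to that of all genes, of which 68.2% were lower. Against mesoderm 3 of 23 rose and 15 fell, with a median of -0.44 against -0.17, where 14.4% of all genes rose and 30.6% fell: Lrp2, an endocytic receptor that binds Shh, rose by 0.82 and Gpc3 by 0.70, while Gas1 fell by 2.11 and Boc, another co-receptor, by 0.74.

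In mesoderm minus P, 2 of 26 rose and 10 fell, with a median of -0.06 against -0.24, where 3.64% of all genes rose and 44.7% fell. Foxf1, a forkhead gene known as a hedgehog target in mesoderm, was 1.04 ± 0.19 higher in mesoderm (SE, log2; limma adjusted p = 0.0125), and Gas1 fell by 1.14. In P minus A at E7.5, 7 of 29 rose and 1 fell, with a median of 0.23 against 0.15, where 9.77% of all genes rose and 3.17% fell. Gas1 rose by 2.55 ± 0.30, Ccnd2 by 2.29, Gpc3 by 1.28, Bmp4 by 0.99 and Boc by 0.95, and Lrp2 fell by 1.74. Along the endoderm axis 3 of 22 rose proximally (Lrp2 by 2.04, Gpc3 by 2.25 and Prkaca by 1.44) and Ccnd1 fell by 1.86, where 11.5% of all genes rose and 1.27% fell. The median slope was 0.09 against 0.36 for all genes. In P from E6.5 to E7.5, 8 of 31 rose and 1 fell, with a median of 0.53 against 0.23, where 8.06% of all genes rose and 2.67% fell. Gas1 went up by 2.44, Boc by 1.66 and Disp1, which releases the ligand from producing cells, by 0.82, and Lrp2 fell by 1.55.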

How the data were processed

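The submitters' processing notes name TopHat2 2.0.8b, Cufflinks 2.1.1 and mm10. The deposited values are FPKM, 1 table per embryo, and the annotation, options and strand handling are not given in the sources used here. FPKM gives no read count, so no count test was run. Of 586 samples, 113 had no column, and 111 columns matching no sample were left out. The labels do not say how embryos were drawn, beyond the embryo number.

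For each contrast the differences of log2(FPKM + 1) between regions of the same section were averaged per embryo, or a slope was fitted per embryo, and tested with limma 3.58.1 (R 4.3.3; trend and robust) over all genes with a mean of 1 FPKM or more in at least 1 stage. Stages share 1 spread per gene, means weight stages equally, and p-values were adjusted by Benjamini-Hochberg over all genes tested (threshold 0.05). SE is limma's moderated error. Regions of an embryo were paired because they come from the same embryo. Within-embryo correlations of deviations were 0.660 to 0.889 at E6.5 and 0.456 to 0.752 at E7.5.

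The script was tested on simulated data. The members and lists were chosen with earlier results of these data known. The genes named are the 8 members, the called genes of the 44-gene list, and the 5 most alike genes of 4 members. Of called list genes some are given as counts only. E6.5 embryo 6 stands in a table named for E6.0 and was kept at E6.5 by its labels. Alternatives were no filter, a pseudocount of 0.1, libraries at an equal sum or median, no poor libraries, no pairing, and each embryo left out.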

Additional observations from a re-analysis of the deposited data

Results flagged for a closer look

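In 40 groups of 4 to 10 embryos or libraries, 1 extreme value stood apart from the rest by Dixon's ratio in 6 cases. Chance alone flags about 1 in 20 groups of normally spread values. That rate does not hold for groups that are mostly 0, such as Ihh in the combined A and P libraries at E6.5. Ptch1 in A at E6.5 was 1.297 FPKM in embryo 4, and Hhip in A at E6.5 was 0.5761 FPKM in embryo 5. Shh in P at E7.5 was 0.8581 FPKM in embryo 4, set by its section 1. Gli1 in the combined A and P library of section 1 at E6.5 was 1.192 FPKM in embryo 3.

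The other 2 cases, Ihh at 12.45 FPKM and Shh at 1.752 FPKM, lie in 1 library: the combined A and P library of section 1 of E6.5 embryo 1. The same library held 460 FPKM of Apoa1, 619 of Rhox5 and 87.7 of Ttr, all visceral endoderm markers, and 30.7 FPKM of Foxa2. Ihh was listed at 0 in the section 1 libraries of the other 5 embryos. The part of visceral endoderm cells in these values was not tested.

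Combined-region libraries, 14 in all, entered no tested comparison of the report, and both ligands had signal there. They were included in the counts of libraries with each ligand and in the correlations over the 97 groups. Besides the 2 values above, Shh was 1.395 FPKM in the combined EA and EP library of E7.0 embryo 2, 9.603 FPKM in that of E7.5 embryo 5 and 0.3495 FPKM in that of E7.5 embryo 6.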

How the results depend on the processing

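Among results on comparisons, 188 values under other settings kept their side of the threshold, 26 counts moved by over 1.5 times, and 1 test was weaker; among single genes 314 were kept, 92 moved, 36 weakened, 7 strengthened, and none reversed. The mean Ihh slope in endoderm, 2.702, had an adjusted p of 0.0892 without the filter. Members called without the filter were 1 in P minus A at E7.5 (0 with it), 6 in endoderm minus epiblast (3), 0 in mesoderm minus P (1) and 0 along the endoderm axis (1). In mesoderm minus P the count was also 0 with a pseudocount of 0.1 or an equal sum, and along P at E6.5 it was 0 (1) at an equal sum or median. It was 1 (0) for the change of endoderm with stage with a pseudocount of 0.1 or with FPKM as deposited. Along A at E7.5 it was 3 (0) in embryos 1 to 3 alone, a split chosen after the values were seen.

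With no replicate block, that is without the pairing of regions within an embryo, endoderm minus mesoderm called 2 members (4 with it) and mesoderm minus P called 0 (1). Ihh in endoderm minus epiblast, 0.95 in both fits, was called in both (adjusted p = 1.41e-05 unpaired). Leaving out each embryo gave 0 to 1 members for P minus A at E7.5, mesoderm minus P, the slopes in P and A at E7.5 and the change of P with stage, 1 to 2 along P at E6.5, and 3 to 4 in endoderm minus mesoderm. The mean Ihh difference ranged from 0.862 to 1.05.

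Counts over all genes moved further: mesoderm minus P called 4749 genes, and 0 without the filter (6168 at an unadjusted p below 0.05) or with a pseudocount of 0.1, 230 at an equal sum, 424 at an equal median and 161 unpaired. Endoderm minus epiblast went from 8144 to 4570 unpaired, the endoderm slope from 1291 to 0 without the filter and 646 without poor libraries, the P slope at E6.5 from 1161 to 138 and 169 under the rescalings, and P minus A at E7.5 from 1480 to 384 unpaired. The causes were not tested.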

Other observations

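At E7.5 the regions coded E1 and E2 in embryo 4 entered no comparison. Ihh averaged 0.529 FPKM in E1 and 0.687 FPKM in E2, and its highest values were 3.68 FPKM in section 9 of E1 and 5.04 FPKM in section 7 of E2. The lateral regions L and R of E7.5 embryo 3 held 2.90 and 1.97 FPKM of Gli1 over 2 libraries each, with Ihh and Shh listed at 0 in all 4. Limits of the comparisons above are the small number of embryos, 2 per stage for endoderm and mesoderm, and the rough depth, since the tables hold no counts. The depth also sets the lowest value that a library can hold above 0.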
